A study of Mus musculus with 30 samples.

Results

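The antigen-presenting machinery of MHC class I was followed in 2 mouse tumor cell lines through 10 genes, chosen by symbol: the classical heavy chains H2-K1 and H2-D1, the non-classical heavy chains H2-T23, H2-T22, H2-Q4, H2-Q6, H2-Q7 and H2-M3, the shared light chain B2m, and Nlrc5, the transactivator of class I genes. All 10 were found among the 49315 genes counted, and all 10 were among the 21138 genes with at least 10 reads over the 24 bulk libraries. The lines were 6694c2, a pancreatic ductal adenocarcinoma (PDAC) line from Pdx-cre female mice whose alleles included p53+/floxed and YFP-floxed, and B16F10, a melanoma line. Both are of C57BL/6 background by the labels. Cells of each line were cultured for 24 h with vehicle, STING agonist (225 μg/mL), IFNβ (1000 U/mL) or IFNγ (100 ng/mL), with 3 libraries in each of the 8 groups. No source says whether the 3 libraries of a group came from separate cultures. The spread between them, on which p-values draw, may thus be technical.

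A class I molecule consists of a polymorphic heavy chain, the light chain β2-microglobulin encoded by B2m, and a short peptide. Peptides are cut by the proteasome, carried into the endoplasmic reticulum by the TAP transporter and loaded there, and CD8+ T cells read the complex at the surface. Interferons raise these genes through induced transcription factors, among them IRF factors, and through Nlrc5, which binds class I promoters with the RFX, CREB and NF-Y factors. The classical heavy chains present peptides to CD8+ T cells. Non-classical heavy chains have narrower roles: H2-T23 encodes Qa-1, a ligand of NKG2A receptors, H2-M3 presents N-formylated peptides, and H2-T22 is a ligand of some γδ T cells.

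Of the 10 genes, 9 had an entry in the RefSeq promoter table (GRCm38.p6), and the letters just before the start are shown for 6 of them. These genes, apart from H2-Q7, rose with both interferons in both lines. Each line below gives 200 bases ending just before the RefSeq start, 5′ to 3′ in the direction of transcription, with motif matches in capitals (1 match of H2-T22 is cut by the edge of the letters shown, and the TTCNNNGAA match of H2-M3 lies before them). The windows of H2-D1 and H2-T23 lie wholly or mostly in exons of longer annotated transcripts and are not shown, nor is that of H2-Q6. The windows shown lie at chr17:34000334-34000533 (minus strand), chr17:35379417-35379616 (plus), chr17:37270034-37270233 (plus), chr17:36042743-36042942 (minus), chr2:122147487-122147686 (plus) and chr17:35438955-35439154 (plus).
H2-K1: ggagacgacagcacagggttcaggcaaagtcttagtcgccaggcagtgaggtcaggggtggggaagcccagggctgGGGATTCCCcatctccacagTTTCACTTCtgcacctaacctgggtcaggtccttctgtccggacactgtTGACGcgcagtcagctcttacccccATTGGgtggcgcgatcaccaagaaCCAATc
H2-Q4: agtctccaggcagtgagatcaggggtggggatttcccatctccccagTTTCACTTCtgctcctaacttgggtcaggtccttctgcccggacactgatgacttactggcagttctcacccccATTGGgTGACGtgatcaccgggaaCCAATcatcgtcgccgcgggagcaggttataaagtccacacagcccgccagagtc
H2-M3: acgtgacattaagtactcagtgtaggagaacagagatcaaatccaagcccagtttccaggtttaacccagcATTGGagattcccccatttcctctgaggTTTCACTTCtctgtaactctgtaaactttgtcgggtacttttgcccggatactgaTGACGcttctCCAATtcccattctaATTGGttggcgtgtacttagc
H2-T22: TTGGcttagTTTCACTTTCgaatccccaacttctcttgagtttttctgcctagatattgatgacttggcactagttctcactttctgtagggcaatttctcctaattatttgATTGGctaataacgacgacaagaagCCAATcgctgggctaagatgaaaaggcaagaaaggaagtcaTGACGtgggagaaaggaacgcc
B2m: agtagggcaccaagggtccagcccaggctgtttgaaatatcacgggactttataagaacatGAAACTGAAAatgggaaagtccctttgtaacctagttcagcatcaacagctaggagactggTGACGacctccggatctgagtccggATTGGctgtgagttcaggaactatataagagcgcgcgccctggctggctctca
H2-Q7: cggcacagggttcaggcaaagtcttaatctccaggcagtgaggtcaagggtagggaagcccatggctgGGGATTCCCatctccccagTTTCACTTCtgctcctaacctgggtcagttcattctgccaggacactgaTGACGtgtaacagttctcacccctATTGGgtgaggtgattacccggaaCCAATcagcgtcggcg

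The capitals mark letters of the interferon-stimulated response element, searched as GAANNGAAA and as GAAANNGAAA, of the gamma-activated site (TTCNNNGAA), of the CCAAT box, of a cyclic AMP response element (TGACG) and of a κB site (GGGATTCCC), each on both strands over the 250 bases before the start. All 9 genes with an entry held 1 of the first 2 spellings: GAANNGAAA in H2-K1, H2-D1, H2-Q4, H2-Q6, H2-Q7 and H2-M3, and GAAANNGAAA in B2m, H2-T23 and H2-T22. Among all 32817 windows of the same length in the table, 6.31% held the former, 2.97% the latter and 8.81% either. The planned spelling, GAANNGAAA, was held by 6 of the 9 genes. GAAANNGAAA was added after seeing the data, so the 9 of 9 beside 8.81% is not a test. CCAAT was found in all 9 (against 33.8% of all windows), TGACG in 7 (17.7%), GGGATTCCC in H2-K1, H2-D1, H2-Q6 and H2-Q7 (0.302%), and TTCNNNGAA in H2-M3 alone (7.01%). No matches overlapped in these windows, and a match is a description of the letters, not of a bound site. H2-Q7 held the same 4 motifs as H2-K1, and its level passed no test under any treatment.

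Counts were made per gene by the authors and are given here as CPM, each gene's reads scaled to a common library total, with library sizes normalised by the trimmed mean of M values (TMM) over the 24 libraries. Depth was 15543131 to 32266795 reads on genes per library. The melanocyte markers summed to 18355 to 18536 CPM in B16F10 vehicle libraries and 83.9 to 87.2 CPM in 6694c2 vehicle libraries, and the ductal epithelial markers to 13.6 to 19.3 and 13852 to 14834 CPM, so each line carried the markers of its label. The 10 immune markers, 7 of them tested, summed to 4.3 to 14 CPM over the 24 libraries. Group means of Csf1r, Adgre1 and Itgax were under 0.5 CPM in every group, and those of the other tested markers were not. Cd79a, a B cell gene, was the 1 immune marker called within a line by edgeR, higher with IFNγ in B16F10 than with vehicle or IFNβ. Transcripts particular to 6694c2 (158 genes) were also read in B16F10 libraries, at 0.185% ± 0.031 of their 6694c2 level with vehicle, 0.288% ± 0.107 with IFNγ, 0.349% ± 0.152 with IFNβ and 0.873% ± 0.121 with STING agonist (mean ± SD, n = 3). Changes were tested within each line by edgeR's quasi-likelihood test, adjusted by Benjamini-Hochberg over all 21138 genes, and an adjusted p under 0.05 is called. This test takes a gene's spread partly from other genes, so its SEs and p-values need not match the scatter of that gene's libraries. Levels of RNA cannot separate fewer cells from less RNA per cell.

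Without treatment, the lines differed in which class I transcripts they carried. H2-K1 stood at 7.27, 12 and 12.6 CPM in the 3 B16F10 vehicle libraries and at 136, 151 and 148 in the 6694c2 ones. B2m went the other way, at 329, 346 and 366 CPM in B16F10 and 86.2, 90.8 and 94.1 in 6694c2. Neither pair of groups overlapped. Compared with B16F10, 6694c2 was higher in 5 of the 10 genes, by log2 fold changes of 3.75 for H2-K1, 0.97 for H2-D1, 2.51 for H2-T23, 2.81 for H2-Q4 and 4.14 for H2-M3, and lower in 2, B2m (-1.94) and Nlrc5 (-2.97). Among all genes, 28.7% were called higher and 29.3% lower in this comparison, so calls between the lines were common. H2-T22 stood at 32.7 ± 2.0 and 29.8 ± 1.14 CPM (mean ± SD, n = 3) and was not called (adjusted p = 0.0956, edgeR). Transcripts particular to B16F10 (108 genes) were read in the 6694c2 vehicle libraries at 0.595% ± 0.0334 of their B16F10 level (mean ± SD, n = 3).

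**Figure D1:**
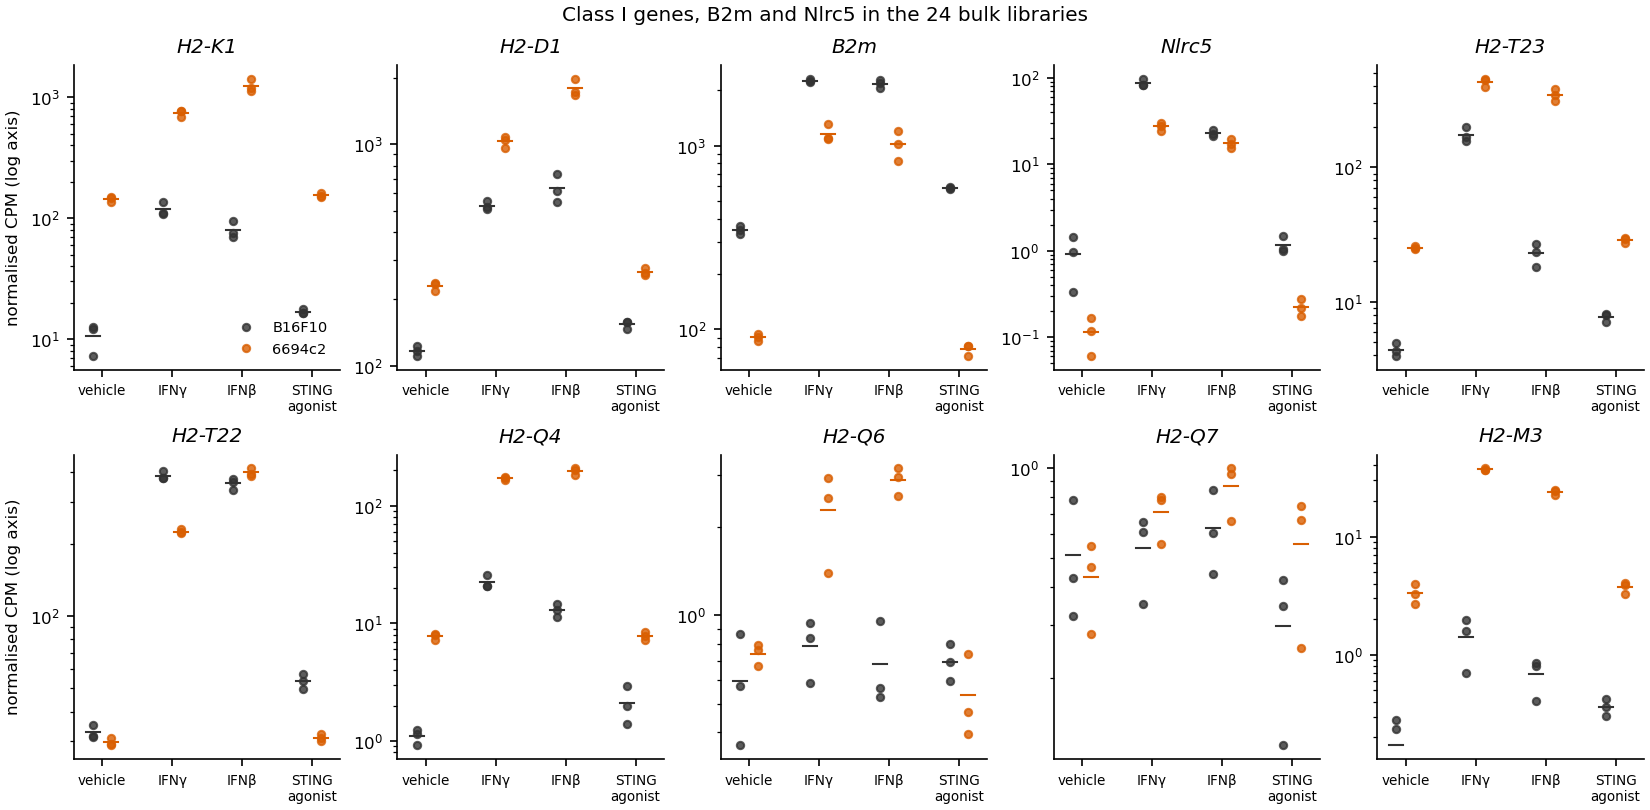
Normalised CPM (log axis) of the 10 genes in each of the 24 libraries by treatment, B16F10 in grey and 6694c2 in orange, with points for libraries and lines for group means. Both interferons lifted 8 of the 10 genes in both lines, and group means of H2-Q6 and H2-Q7 were under 1 CPM in B16F10. A zero (H2-M3, 1 B16F10 vehicle library) cannot be drawn on the log axis.

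IFNγ, the cytokine of Th1 and CD8+ T cells, raised the classical pair in both lines. In B16F10 cells H2-K1 was at 111, 136 and 109 CPM with IFNγ, all above the vehicle libraries, a log2 fold change of 3.46 ± 0.0828 (SE). H2-D1 rose from 117, 111 and 122 to 519, 554 and 511 CPM (2.18 ± 0.0567). The smaller fold of H2-D1 went with a higher level without treatment. In 6694c2 cells H2-K1 rose to 771, 685 and 774 CPM (2.38 ± 0.0765) and H2-D1 from 218, 236 and 233 to 1049, 964 and 1078 (2.19 ± 0.0699). The IFNγ response of H2-K1 was smaller in 6694c2 than in B16F10 cells (difference -1.1 on the log2 scale, adjusted p = 1.60e-06, edgeR interaction over the 24 libraries), while that of H2-D1 differed by -0.01, with a 95% interval of -0.21 to 0.19.

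The light chain rose more in 6694c2. B2m reached 2257, 2208 and 2299 CPM with IFNγ in B16F10 (2.7 ± 0.0516) and 1307, 1093 and 1078 CPM in 6694c2 (3.7 ± 0.0957), a difference in response of 0.98 (adjusted p = 3.93e-08, edgeR). Nlrc5 was the gene with the largest fold of the 10. It stood at 0.335, 1.44 and 0.978 CPM in B16F10 vehicle libraries and at 83.9, 97.1 and 83.2 with IFNγ (6.52 ± 0.129). In 6694c2 cells only 2, 3 and 1 reads fell on Nlrc5 in the vehicle libraries, 6 in all, against 1765 with IFNγ, a ratio of 238 with an exact 95% counting interval of 109 to 648. The share of B16F10 transcripts in these vehicle libraries multiplied by the highest B16F10 Nlrc5 level of any group was 0.524 CPM, and by the B16F10 vehicle level 0.00547 CPM, beside the 0.115 CPM read there. Their part in this Nlrc5 level, which enters every comparison of Nlrc5 with the 6694c2 vehicle group, was not tested. The groups did not overlap in either line, and the responses of Nlrc5 to IFNγ were not called different between the lines (1.3, adjusted p = 0.231, edgeR).

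Among the 6 non-classical heavy chains, H2-T23 had the largest fold with IFNγ in B16F10 cells, from 3.97, 4.29 and 4.93 to 168, 199 and 158 CPM (5.3 ± 0.0926), and it rose in 6694c2 from 24.6, 25.8 and 25 to 453, 394 and 448 (4.12 ± 0.084). H2-Q4 rose by 4.34 in B16F10 and 4.47 in 6694c2, and H2-T22 by 3.56 and 2.94. H2-M3 rose by 2.93 in B16F10, where vehicle libraries held 0, 7 and 6 reads, and by 3.5 in 6694c2. H2-Q6 rose in 6694c2 from 0.759, 0.67 and 0.792 to 2.95, 2.51 and 1.39 CPM (1.59, adjusted p = 2.94e-04, edgeR). In B16F10 its log2 fold change of 0.37 did not pass. H2-Q7 was not called in either line. Under IFNγ 8 of the 10 genes were called higher in B16F10 and 9 in 6694c2, where 12% and 7.89% of all genes were, with adjusted p at most 1.04e-07 and 2.94e-04 among the members called (edgeR). Their median log2 fold changes were 3.2 and 3.22, against 0 over all genes tested. Between the lines the response was greater in 6694c2 for B2m alone among the members called (all genes 4.52%) and smaller for H2-K1, H2-T23 and H2-T22 (all genes 4.95%).

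IFNβ, a type I interferon, raised the same number of genes, 8 in B16F10 (all genes 12.7%) and 9 in 6694c2 (all genes 10.4%), with largest adjusted p of 0.00241 and 2.82e-06 (edgeR). In B16F10 the H2-K1 libraries read 69.8, 75.7 and 94.1 CPM (2.9 ± 0.0831) and those of H2-D1 548, 618 and 733 (2.45 ± 0.0571). In 6694c2 they read 1199, 1125 and 1414 (3.14 ± 0.0787) and 1725, 1676 and 1970.4 (3.0 ± 0.0721), the highest levels of both genes in any group. B2m rose by 2.66 and 3.53. H2-T22 rose by 3.46 and 3.78, and H2-Q4 by 3.55 and 4.7. H2-M3 rose by 1.91 in B16F10 (adjusted p = 0.00241, edgeR, a call lost without vehicle replicate 1) and by 2.88 in 6694c2. H2-Q6 rose in 6694c2 (1.99) and was not called in B16F10 (0.20). H2-Q7 had 1.04 in 6694c2 with an unadjusted p of 0.0276 and an adjusted p of 0.118 (edgeR).

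**Figure D2:**
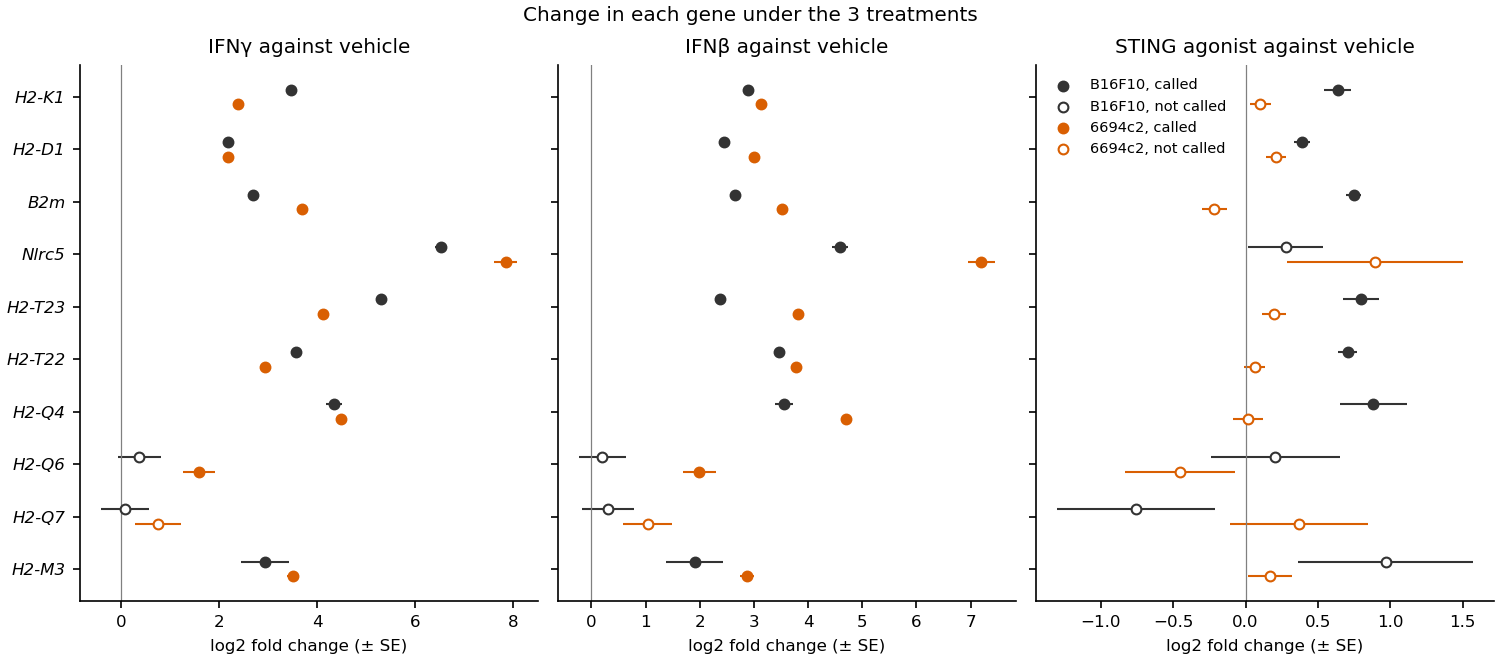
Log2 fold change against vehicle (points, bars for the SE) of each gene under IFNγ, IFNβ and STING agonist, B16F10 in grey and 6694c2 in orange, with filled points for adjusted p under 0.05. Under the STING agonist, 6 genes were called in B16F10, with log2 fold changes under 1, and none in 6694c2.

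The response to IFNβ was greater in 6694c2 than in B16F10 for 7 of the 10 genes (all genes 6.16%), tested as an interaction. Nlrc5 differed most, 2.58 on the log2 scale (adjusted p = 0.00161, edgeR), a value that rests on the 6 reads of the 6694c2 vehicle libraries. It stood at 21.3, 25 and 22.4 CPM with IFNβ in B16F10 and at 19.9, 17 and 15.6 in 6694c2, a narrower gap than that between the vehicle groups (means of 0.919 and 0.115 CPM). H2-Q6 (1.77), H2-T23 (1.41), H2-Q4 (1.12), B2m (0.84), H2-D1 (0.53) and H2-T22 (0.29, adjusted p = 0.0304) were the other six. The call for H2-T22 was lost in 4 of the fits that left out a library and that for H2-Q6 without B16F10 vehicle replicate 3. H2-K1 differed by 0.21 and was not called (95% interval -0.10 to 0.52), but without B16F10 vehicle replicate 1 it differed by 0.47 and was called by edgeR.

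Set directly against each other, the interferons gave different levels of several of the genes. In B16F10 cells H2-T23 stood at 175 ± 21.8 CPM with IFNγ and at 23 ± 4.44 with IFNβ (mean ± SD, n = 3), 7.56-fold lower under IFNβ (-2.92 ± 0.0744). Nlrc5 (-1.93), H2-Q4 (-0.79) and H2-K1 (-0.56) were lower too, while H2-D1 was higher (0.27). The call for H2-K1 was lost in a robust fit. B2m (-0.04) and H2-T22 (-0.10) were not called. In 6694c2 cells H2-K1 and H2-Q4, called lower in B16F10, were called on the other side of 0. There H2-K1 was higher under IFNβ by 0.76, H2-D1 by 0.82, H2-T22 by 0.84 and H2-Q4 by 0.22. Lower under IFNβ were Nlrc5 (-0.64), H2-T23 (-0.30) and H2-M3 (-0.62). The small rise of H2-Q4 (adjusted p = 0.019, edgeR) was lost in a fit of all 24 libraries and without IFNγ replicate 2, IFNβ replicate 1 or IFNβ replicate 3. In B16F10 1 gene was higher (all genes 6.65%) and 4 lower (7.85%), and in 6694c2 4 were higher (7.3%) and 3 lower (6.57%).

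Ordered by level, H2-K1 was highest in 6694c2 with IFNβ, then IFNγ, then STING agonist and vehicle, which overlapped, followed by B16F10 with IFNγ, IFNβ, STING agonist and vehicle, each apart from the next. For B2m both B16F10 interferon groups came first and overlapped, then both 6694c2 ones, which overlapped too, then B16F10 with STING agonist, B16F10 with vehicle, 6694c2 with vehicle and 6694c2 with STING agonist, each apart from the next.

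The contrast between the interferons was itself compared between the lines, a comparison chosen after the values were seen. Relative to IFNγ, the IFNβ levels were higher in 6694c2 than in B16F10 for 6 of the 10 genes (all genes 4.58%): H2-T23 by 2.61 ± 0.126 on the log2 scale, H2-K1 by 1.31, Nlrc5 by 1.28, H2-Q4 by 1.0, H2-T22 by 0.93 and H2-D1 by 0.54 (largest adjusted p = 2.44e-04, edgeR). B2m differed by -0.14, with a 95% interval of -0.36 to 0.08. This contrast leaves out the vehicle libraries, so the low Nlrc5 counts of the 6694c2 vehicle group do not enter it.

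**Figure D3:**
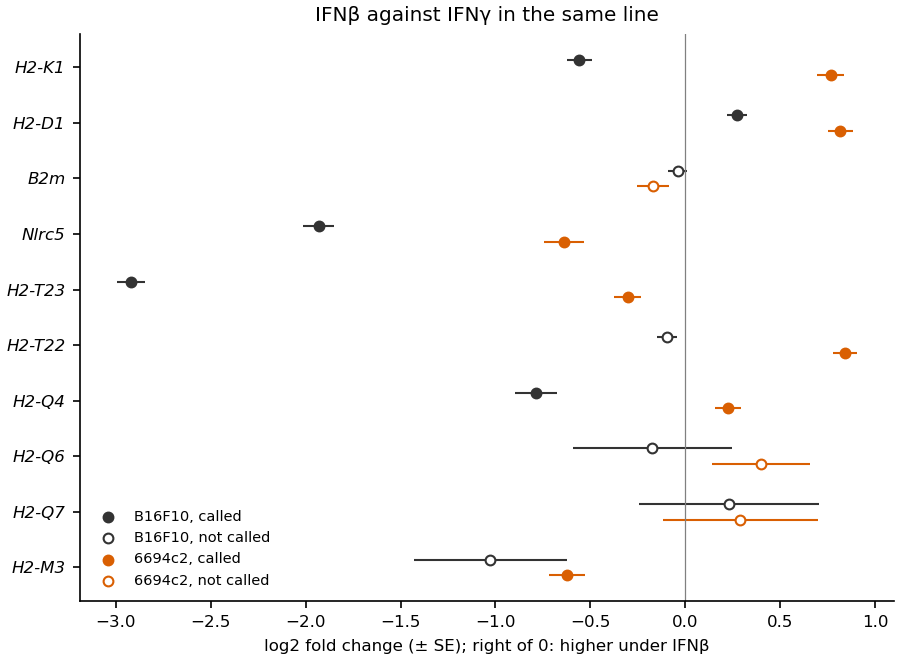
Log2 fold change of IFNβ against IFNγ (points, bars for the SE) for each gene, B16F10 in grey and 6694c2 in orange, with filled points for adjusted p under 0.05. H2-T23 lies furthest to the IFNγ side in B16F10, and H2-K1 and H2-Q4, called in both lines, lie on opposite sides of 0 in the 2 lines.

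With STING agonist, members were called in B16F10 cells and not in 6694c2 cells. B2m rose in B16F10 from 329, 346 and 366 to 577, 592 and 586 CPM (0.75 ± 0.0492) and H2-T22 from 31.8, 31.4 and 35 to 49.7, 53.8 and 57.5 (0.71 ± 0.0639). H2-D1 rose to 157, 147 and 157 CPM (0.39 ± 0.0562) and H2-K1 to 17.8, 16.4 and 16.4 (0.64 ± 0.0949), without overlap with vehicle, although the H2-K1 call was lost in a robust fit. H2-T23 (0.80) and H2-Q4 (0.88, adjusted p = 0.00804) rose too, the latter not without vehicle replicate 2 or STING agonist replicate 3, nor under another minimum on counts. With the 4 others not called, 6 of 10 genes rose where 1.93% of all genes did. Nlrc5 was at 1.49, 0.996 and 1.06 CPM and was not called (0.28, adjusted p = 0.748, edgeR).

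The share of 6694c2 transcripts was higher in the B16F10 STING agonist libraries than in the vehicle ones, and ductal epithelial markers summed to 102 to 135 CPM there. This difference in share multiplied by the highest 6694c2 level of any group came to 8.57 CPM for H2-K1, against a rise of 6.23, to 2.97 against 3.33 for H2-T23 and to 1.36 against 0.985 for H2-Q4. With the 6694c2 vehicle level it came to 0.996, 0.173 and 0.0534 CPM. For B2m the larger product was 7.97 CPM against a rise of 238, for H2-D1 12.3 against 37 and for H2-T22 2.74 against 20.9. The part of these transcripts in the rises of H2-K1, H2-T23 and H2-Q4 was not tested.

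In 6694c2 cells, none of the 10 genes was called with STING agonist by edgeR or by DESeq2, where edgeR called 0.203% of all genes higher and 0.156% lower. Before adjustment, 3 of the 10 had an edgeR p under 0.05: H2-D1 and H2-T23 on the higher side and B2m on the lower. H2-K1 stood at 154, 149.8 and 162 CPM (0.10, 95% interval -0.04 to 0.25), H2-D1 at 262, 257 and 275 (0.21, 0.08 to 0.34) and B2m at 71.6, 80.6 and 80.8 (-0.21, -0.39 to -0.04). The share of B16F10 transcripts was lower in these libraries (0.236% ± 0.0348) than in the 6694c2 vehicle ones (0.595% ± 0.0334), the melanocyte markers summed to 18.5 to 22.3 CPM, and 5 of 7 of them were called lower (edgeR). That difference in share multiplied by the highest B16F10 level of any group came to -8.08 CPM for B2m, and multiplied by the B16F10 vehicle level to -1.24 CPM, beside a B2m difference of -12.7 CPM. The part of these transcripts in the B2m level was not tested. Tested as an interaction, the response was smaller in 6694c2 for B2m (-0.97, adjusted p = 2.96e-07) and H2-T22 (-0.65, adjusted p = 1.40e-05), 2 of 10 where 1.56% of all genes were called lower (edgeR). H2-K1 (-0.55, adjusted p = 0.081), H2-T23 (-0.61, adjusted p = 0.0689) and H2-Q4 (-0.87, adjusted p = 0.0968) did not pass, and all 3 passed with no minimum on counts. H2-D1 did not pass either (-0.19, 95% interval -0.39 to 0.02, adjusted p = 0.475, edgeR).

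Per kilobase of the exonic length used in counting, the balance of light to heavy chain differed widely between the lines. That length equals all annotated exonic bases of a gene, so ratios and shares per kb are not ratios of molecules. B2m over the sum of the 8 heavy chains was 6.42, 6.83 and 6.49 in the B16F10 vehicle libraries and 0.632, 0.609 and 0.642 in the 6694c2 ones. In 6694c2 it was 1.49, 1.37 and 1.22 with IFNγ, 0.813, 0.691 and 0.843 with IFNβ and 0.447, 0.516 and 0.486 with STING agonist, all without overlap with vehicle (two-sided exact permutation p = 0.1, below which 3 against 3 libraries cannot go). The STING agonist libraries of 6694c2 are those with the lower share of B16F10 transcripts, whose part in this ratio was not tested. In B16F10 it was 6.06 ± 0.494 with IFNγ and 6.46 ± 0.757 with IFNβ, both overlapping vehicle (6.58 ± 0.216; exact permutation p = 0.20 and 0.80, n = 3), and 7.93 ± 0.326 with STING agonist (exact permutation p = 0.1). The summed heavy chains were at 61.3 ± 3.62 CPM per kb in B16F10 with vehicle, 434 ± 28.1 with IFNγ and 395 ± 46.9 with IFNβ, and at 167 ± 7.77, 993 ± 55.7 and 1502 ± 139.9 in 6694c2.

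Within the heavy chains, H2-D1 took 73.7% of the summed level per kb in untreated B16F10 cells and H2-K1 6.63%, where 6694c2 cells had 53% and 33.1%. H2-K1 over H2-D1 was 0.0903 ± 0.025 in B16F10 with vehicle, 0.221 ± 0.0176 with IFNγ and 0.125 ± 0.00304 with IFNβ, and 0.625 ± 0.00767, 0.713 ± 0.0131 and 0.687 ± 0.0231 in 6694c2, each interferon group lying wholly above vehicle (exact permutation p = 0.1). H2-K1 over H2-D1 with STING agonist was 0.109 ± 0.0047 in B16F10 and overlapped vehicle (exact permutation p = 0.2). In 6694c2 it was 0.58 ± 0.00261 and lay wholly below vehicle (exact permutation p = 0.1). H2-T23 went from 2.48% to 13.9% of the B16F10 sum with IFNγ and to 2.0% with IFNβ, and in 6694c2 from 5.2% to 15% and 7.96%. H2-T22 went from 15.6% to 26.1% and 26.7% in B16F10 and made up 5.21% in 6694c2 with vehicle.

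**Figure D4:**
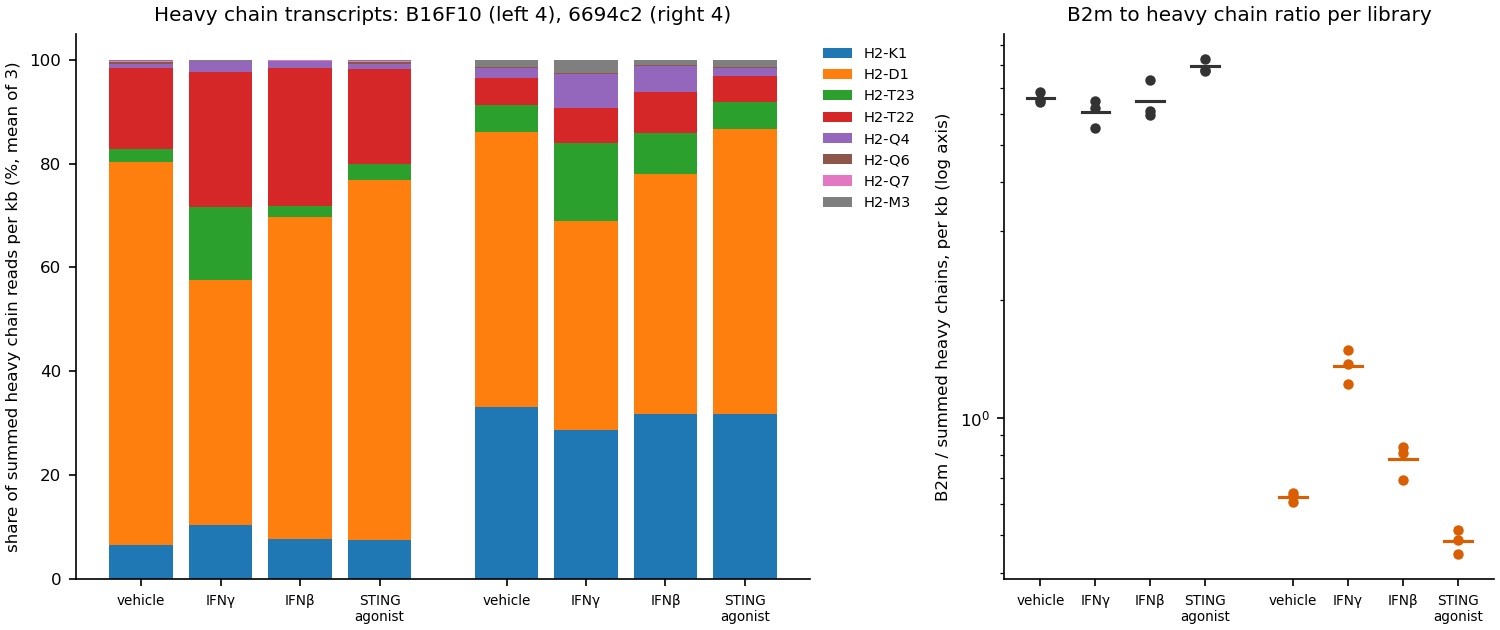
Left, mean share of each heavy chain in the summed heavy chain reads per kb (%, 3 libraries a group), and right, B2m over the summed heavy chains per kb in each library (log axis, line for the mean), B16F10 in grey and 6694c2 in orange. H2-D1 takes the largest share in every group, and the B2m ratio is 5.51 or above in all B16F10 libraries and 1.49 or under in all 6694c2 ones.

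The other genes of the pathway were taken from a list of 13 for peptide processing and loading and another of 14 for transcription. Of the processing genes, 10 were called higher with IFNγ in B16F10 and 10 in 6694c2, 10 and 11 with IFNβ, and 7 and 0 with STING agonist. The shares of all genes called higher were 12% and 7.89%, 12.7% and 10.4%, and 1.93% and 0.203%. Their median log2 fold changes were 3.73 and 4.07 with IFNγ, 2.24 and 3.09 with IFNβ, and 0.52 and -0.06 with STING agonist, beside a median over all genes of 0.0194 with IFNβ in B16F10 and 0 in the other 5 comparisons. Calr was lower with IFNγ in B16F10 (all genes 10.8%), and Calr, Canx and Pdia3 with IFNβ (all genes 11.2%). Tap1, a subunit of the peptide transporter, rose by 5.3 and 7.17 with IFNγ and by 4.38 and 6.3 with IFNβ (B16F10 and 6694c2). The immunoproteasome subunit Psmb8 rose by 3.48 and 6.09 with IFNγ, and by 1.01 and 3.72 with IFNβ. Against IFNγ, IFNβ levels were lower for 10 of the 13 in B16F10 (all genes 7.85%) and 9 in 6694c2 (6.57%). In 6694c2 1, Calr, was higher (all genes 7.3%).

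In the transcription list, 8 genes were higher with IFNγ in B16F10 and 8 in 6694c2, 5 and 7 with IFNβ, and 5 and 0 with STING agonist, while 1 and 0, 3 and 1, and 1 and 0 were lower. Of all genes, 12% and 7.89% were called higher with IFNγ, 12.7% and 10.4% with IFNβ and 1.93% and 0.203% with STING agonist, and 10.8% and 5.66%, 11.2% and 7.86%, and 1.53% and 0.156% lower. Irf1, an interferon-induced activator of class I promoters, was at 12.3 CPM in B16F10 with vehicle, 637 with IFNγ and 39.3 with IFNβ, and at 22.2, 573 and 105 in 6694c2. Stat2 and Irf9, parts of the factor formed under type I interferon, were higher under IFNβ than IFNγ in both lines, Stat2 by 0.38 and 1.14 and Irf9 by 0.45 and 0.88. Rfx5, a partner of Nlrc5 at class I promoters, rose with IFNγ in both lines (0.80 and 1.6) and with IFNβ in 6694c2 (1.05). Of 25 other class I-like genes, 18 were tested, of which 4 and 3 were higher with IFNγ, 8 and 5 with IFNβ (B16F10 and 6694c2), beside 12% and 7.89%, and 12.7% and 10.4%, of all genes. With IFNγ 3 and 1 were lower (all genes 10.8% and 5.66%), with IFNβ 0 and 1, and with STING agonist none was called in either line by edgeR. H2-T10 and H2-T24 rose with both interferons in both lines, H2-T10 by 2.55 and 4.42 with IFNγ. Mean H2-T10 levels were low, 0.14 CPM with vehicle and 0.844 with IFNγ in B16F10, and 0.257 and 5.47 in 6694c2. H2-T10 shares sequence with H2-T22, and the part of shared reads in its rise was not tested.

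The genes whose pattern was most like that of H2-K1, by Pearson's r over the 24 libraries after centring each line on log2(CPM + 0.5), were Zbp1 (0.990), H2-T22 (0.990), Trim12a (0.987), Parp11 (0.984) and Rnf114 (0.981), among 12387 genes with a mean of at least 1 CPM. Those most like Nlrc5 were Gm4951 (0.993), Nub1 (0.989), Erap1 (0.989), Psme2 (0.988) and Ifi47 (0.987). The libraries share their treatments and lines, so these values describe the pattern.

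By the count tables, on GRCm38, H2-K1 (ENSMUSG00000061232) lies on chromosome 17 from 33996017 to 34000333, H2-D1 (ENSMUSG00000073411) from 35262730 to 35267499, H2-T23 (ENSMUSG00000067212) from 36029773 to 36032855, H2-T22 from 36037128 to 36042747, H2-Q4 from 35379617 to 35385290, H2-Q6 from 35424850 to 35430055, H2-Q7 from 35439155 to 35443773 and H2-M3 from 37270220 to 37274484. B2m (ENSMUSG00000060802) lies on chromosome 2 from 122147686 to 122153083 and Nlrc5 (ENSMUSG00000074151) on chromosome 8 from 94434356 to 94527272. GENCODE M21 annotates all 10 as protein-coding. Similar H2 genes can share reads. Of the 100-base windows along the reference transcripts of a gene, 12% of those of H2-Q7 and 10.8% of those of H2-Q6 occur in another gene's transcripts, 8.86% for H2-T22 (mostly H2-T10), 3.59% for H2-D1, 3.15% for H2-T23, 2.16% for H2-Q4, 0.957% for H2-K1 and none for B2m, Nlrc5 and H2-M3. Treatment of such reads in the counting is not given in the sources used here. These shares do not bound the part of a gene's reads that came from another gene, which depends on the level of the other gene too. H2-Q6 shares windows with H2-Q7, H2-D1 and H2-Q4, among others. With IFNβ in 6694c2, H2-D1 stood at 1791 and H2-Q4 at 197 CPM, beside 2.89 for H2-Q6, whose log2 fold change there was 1.99. The part of shared reads in the levels and calls of H2-Q6, H2-Q7 and H2-T22 was not tested. Exons of an opposite-strand gene cover 29.4% of the exonic bases of H2-T22 (A930015D03Rik) and 19.1% of those of H2-Q4 (Gm11131), and strand use in the counting is not given either.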

How the data were processed

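The authors sequenced polyA RNA with paired ends, trimmed adaptors with cutadapt, aligned with STAR and counted reads per gene with Rsubread. The deposited values are raw read counts per gene, 1 table per library, on mm10 per the submitters' processing notes. Annotation release, strand and treatment of reads that map to several places are not given in the sources used here. Single-cell samples were not analysed here, and some items of the labels and lists are not reported here.

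The minimum of 10 reads per gene, summed over 24 libraries, follows the study's methods. Each line's 12 libraries were fitted with group means after TMM normalisation with edgeR 4.0.16 in R 4.3.3 (quasi-likelihood test, Benjamini-Hochberg over 21138 genes, threshold 0.05), and contrasts across lines over all 24. The study used DESeq2, which is an alternative here (version 1.42.0). Each SE is the absolute log2 fold change over the square root of F, and 95% intervals are 1.96 SEs wide on each side. Printed CPM use TMM over the 24 libraries, so they differ slightly from the fitted folds. Single values used exact permutation tests of libraries. The transcripts called particular to a line had at least 50 CPM there in every group and under 2% of that in the other. The fit was tested on simulated data. Genes were named by membership of the 10, and pathway genes by the lists. Members and lists were chosen with earlier results of these data known. Alternatives were DESeq2, RLE factors, other minimums, a robust fit, other sets of libraries, a replicate block and each library left out. The comparison of the interferon contrast between lines, and the spelling GAAANNGAAA, were added after seeing the data.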

Additional observations from a re-analysis of the deposited data

Results flagged for a closer look

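The results listed here are differences between the lines in the response to the same treatment, each called by edgeR as an interaction over the 24 libraries and given as 6694c2 minus B16F10 on the log2 scale. For IFNγ against vehicle they were H2-K1 (-1.1), B2m (0.98), H2-T23 (-1.2) and H2-T22 (-0.64). For IFNβ against vehicle they were H2-D1 (0.53), B2m (0.84), Nlrc5 (2.58), H2-T23 (1.41), H2-T22 (0.29), H2-Q4 (1.12) and H2-Q6 (1.77). For the STING agonist they were B2m (-0.97) and H2-T22 (-0.65).

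For IFNβ against IFNγ, a comparison added after seeing the data, they were H2-K1 (1.31), H2-D1 (0.54), Nlrc5 (1.28), H2-T23 (2.61), H2-T22 (0.93) and H2-Q4 (1.0). Groups of 3 libraries were not screened for single libraries that stand apart. Treatments of a line share their vehicle libraries, so its IFNγ, IFNβ and STING agonist values are not independent of each other.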

How the results depend on the processing

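Of 78 calls of a member, 1139 of 1154 values under the alternatives kept direction and call, 15 lost the call and none reversed. No cause of a lost call was tested. The robust fit raised the SE of H2-K1 in B16F10 from 0.0949 to 0.228 for STING agonist against vehicle. For IFNβ against IFNγ that SE went from 0.0681 to 0.163. For the lower responses of 6694c2 to the STING agonist, 2 members were called, 5 with no minimum on counts and 4 by DESeq2. For the higher responses to IFNγ, leaving out libraries gave 1 to 2 members, 2 without B16F10 vehicle replicate 1, where Nlrc5 was also called (1.70). H2-K1 in B16F10 vehicle replicate 1 read 7.27 CPM against 12 and 12.6 in the others, and without it H2-K1 differed in the IFNβ response (0.47). The difference between the lines in the IFNγ response of H2-D1 changed sign with RLE factors (0.018) and DESeq2 (0.018).

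Reversals when 1 library was left out were of values that were not called. Their log2 fold changes ranged from -0.18 to 0.54 for H2-Q7 under IFNγ, -0.13 to 0.57 for H2-Q6 under IFNβ, -0.070 to 0.75 for Nlrc5 and -0.059 to 0.58 for H2-Q6 under STING agonist, and -0.047 to 0.41 for H2-Q7 in IFNβ against IFNγ, all in B16F10. They ranged from -0.036 to 0.075 for H2-Q4 in 6694c2 with STING agonist, and between vehicle groups from -0.021 to 0.63 for H2-Q6 and -0.56 to 0.15 for H2-Q7. Between the lines, they ranged from -0.044 to 0.081 for the IFNγ response of H2-D1 and -0.15 to 0.33 for H2-Q7 in IFNβ against IFNγ. The B16F10 B2m to heavy chain difference with IFNβ ranged from -0.13 to 0.022.

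For the B2m to heavy chain balance in B16F10, the difference from vehicle reversed when H2-K1 and H2-D1 stood for the heavy chains (0.36 with IFNγ and 0.17 with IFNβ on the log2 scale). Deviations of same-numbered libraries from their group means had a median r of -0.0044 over 36 pairs (range -0.221 to 0.203). With different numbers it was 0.0012 over 72 pairs (range -0.32 to 0.291). These medians cannot tell whether some of the groups were paired. With the replicate block 129 of 130 member values kept their call, and H2-K1 was called in the STING agonist interaction (-0.56). Low counts limit H2-Q6, H2-Q7 and B16F10 H2-M3.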
